A study of Mus musculus with 8 samples.

Results

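The genes described here encode enzymes that build and modify fatty acids, together with 2 proteins that bring fatty acids into use: Fasn, Acaca, Acly, Scd1, Scd2, Elovl6, Fads1, Fads2, Acsl1 and Cd36. The 10 genes were picked by symbol from the 21899 genes of the deposited count table, and all 10 passed the filter on low counts, as did 11777 genes of the table. They were measured by RNA sequencing of poly(A) RNA in mesenchymal stem cells of mouse femur marrow, the adherent stromal cells that can form bone, cartilage and fat. The tested cells received 10 µM ellagic acid (EA), a plant polyphenol, for 48 h, and the control cells received the solvent DMSO for the same time. Each group had 4 libraries, numbered 1 to 4. The labels give no strain, age or sex, and nothing in them tells whether libraries of 1 group stem from different animals or dishes. The p-values therefore reflect the spread among these libraries alone, and that spread may be technical.

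Cells make fatty acids from citrate that leaves the mitochondria. Citrate is cleaved to acetyl-CoA, acetyl-CoA is carboxylated to malonyl-CoA, and fatty acid synthase joins these units into palmitate, which elongases and desaturases then turn into longer and unsaturated chains. In liver and fat, the genes of this route are known as targets of the transcription factor SREBP-1, and the gene of SREBP-1 and Scd1 are also known as targets of the oxysterol receptor LXR. Marrow stromal cells can become adipocytes, in which this route and fatty acid uptake are strongly used.

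The promoters of 3 genes, chosen after their values were seen, are shown because their genes took different courses in EA cells: Fasn was higher, and Fads2 and Acsl1 were lower. Each line holds the 250 bases before the annotated start on the gene's strand, from RefSeq on build GRCm38.p6, with CCAAT and GGGCGG in either orientation in capitals. The windows are chr11:120824548-120824797 on the minus strand for Fasn, chr19:10101504-10101753 on the minus strand for Fads2 and chr8:46470787-46471036 on the plus strand for the upstream start of Acsl1.
Fasn: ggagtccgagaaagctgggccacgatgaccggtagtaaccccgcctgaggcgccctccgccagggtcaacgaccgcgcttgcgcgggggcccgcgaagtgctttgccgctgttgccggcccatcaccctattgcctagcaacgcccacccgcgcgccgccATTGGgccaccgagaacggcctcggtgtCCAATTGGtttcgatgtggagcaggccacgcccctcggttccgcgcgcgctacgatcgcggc
Fads2: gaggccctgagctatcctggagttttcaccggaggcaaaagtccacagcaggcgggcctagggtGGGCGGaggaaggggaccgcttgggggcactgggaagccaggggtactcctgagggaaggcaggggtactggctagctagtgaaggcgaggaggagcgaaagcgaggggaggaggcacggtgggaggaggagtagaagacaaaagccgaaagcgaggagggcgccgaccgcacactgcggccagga
Acsl1: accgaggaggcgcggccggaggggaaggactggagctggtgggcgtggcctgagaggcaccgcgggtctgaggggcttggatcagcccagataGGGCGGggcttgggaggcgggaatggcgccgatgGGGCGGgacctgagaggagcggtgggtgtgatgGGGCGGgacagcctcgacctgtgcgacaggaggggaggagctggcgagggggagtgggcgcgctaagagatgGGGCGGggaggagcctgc
The CCAAT box, bound by NF-Y, was present on either strand at 3 positions of the Fasn window, at 90, 62 and 59 bases before the start, and the matches at 62 and 59 overlap. The GC box GGGCGG, bound by Sp1, stood 186 bases before the start in the Fads2 window and at 157, 123, 90 and 18 bases before the start in the Acsl1 window. RefSeq windows were found for 7 of the 10 genes, and since Acsl1 has a window for each of its 2 listed starts there were 8 windows. CCAAT was in 3 of the 8 windows, against 33.8% of all 32851 windows of this length, and GGGCGG was in 4 of the 8, against 32.7%. The E box CACGTG was in 0 of the 8 windows, against 6.02%. The window of the other Acsl1 start, not shown, had CCAAT at 172 and 49 bases before the start and no GGGCGG. The Cd36 window, also not shown, had CCAAT at 195 bases and GGGCGG at 109 and 93 bases, and Cd36 was higher in EA. The bases just after this Cd36 start were not found in an annotated transcript of the gene, unlike those of the other windows. In the 3 windows shown, CCAAT was only in that of the higher gene and GGGCGG only in those of the lower genes. The windows of Cd36 and of the other Acsl1 start did not keep to this split. The part of the motifs was not tested. Counts per gene cannot tell the 2 starts of Acsl1 apart.

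The libraries held 14112519 to 17390200 reads in EA and 14654286 to 16637984 in control. Levels are given as CPM, counts relative to library size, scaled by TMM factors, which were 0.878 to 0.885 in EA and 1.13 to 1.14 in control. Of the tested genes, 67.2% passed an adjusted p under 0.05 between EA and control, 33.1% higher and 34.2% lower in EA (quasi-likelihood test of edgeR, Benjamini-Hochberg adjusted). With so many genes past the threshold, the scaling can set a direction, and with library totals in place of TMM the median over all tested genes moved by -0.36 on the log2 scale. The 12 mesenchymal stromal markers summed to 4050 to 4245 TMM-scaled CPM in EA and 3050.3 to 3375 in control, and on library totals to 3554 to 3741 CPM in EA and 3444 to 3854 CPM in control, with Thy1 under 1 CPM on library totals in all 8 libraries. The 11 adipocyte markers summed to 12.4 to 19.3 TMM-scaled CPM in EA and 15.3 to 22.2 in control, with Adipoq, Plin1, Pparg and Retn under 1 CPM everywhere. On library totals the adipocyte markers summed to 10.9 to 17.0 CPM in EA and 17.4 to 25.1 CPM in control, without overlap. The osteoblast markers summed to 212 to 238 TMM-scaled CPM in EA and 85.6 to 101 in control, and the erythroid markers to 0.996 to 4.36 in EA and 1.03 to 2.45 in control, with Hba-a2 at 0. Within these lists markers went both ways. Of 11 tested stromal markers 5 were higher and 3 lower, and of 6 tested osteoblast markers 4 were higher and 1 lower, beside 67.2% of all tested genes called. On library totals, Pdgfra had mean CPM of 557 in EA and 156 in control, and Prrx1 had 298 and 578. The osteoblast markers summed to 186 to 210 CPM in EA and 96.7 to 115 CPM in control on library totals. Most of this sum was Runx2, at a mean on library totals of 159 CPM in EA and 87.3 CPM in control. Dmp1 had 6.76 and 11.8 CPM on the same scale. The part of these markers in the results was not tested.

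Of the 10 genes, 3 were higher in EA, 3 were lower and 4 did not pass the threshold, so 6 of 10 were called beside 67.2% of all tested genes. Their median log2 fold change was 0.07, beside -0.02 for all tested genes. Fasn and Cd36 were higher in EA, with Scd1 just past the threshold, and Acsl1, Fads2 and Fads1 were lower, all by less than 1.7-fold. EA and control libraries were fully separate for Fasn, Fads2, Acsl1 and Cd36, which is 4 of 10 genes beside 60.6% of those tested (29.9% higher and 30.7% lower). In bulk RNA, fewer cells that express a gene and less of its RNA per cell cannot be told apart.

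**Figure D1:**
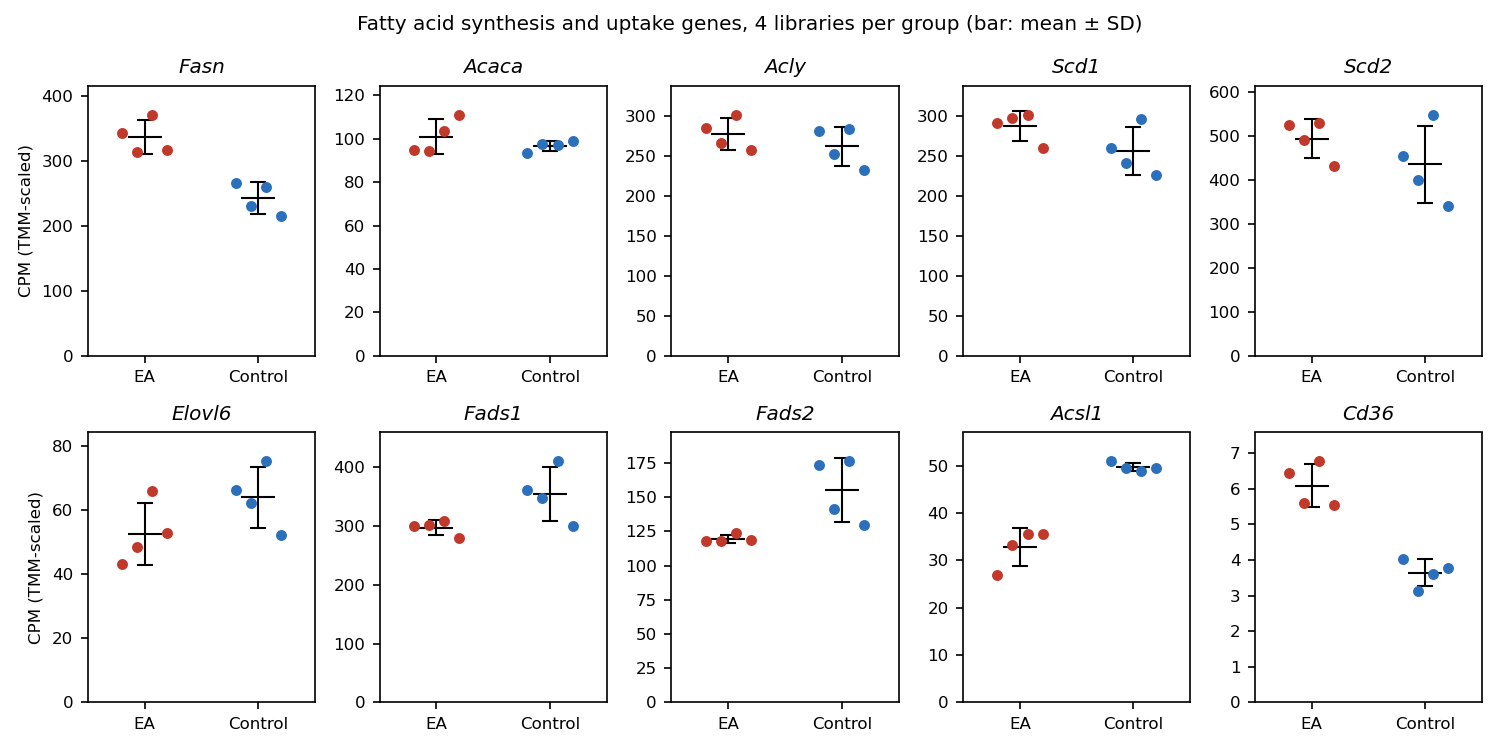
TMM-scaled CPM (vertical axis, from 0) of each gene in the 4 EA libraries (red, left) and the 4 control libraries (blue, right), with bars for the mean ± SD. Fasn and Cd36 lie higher in all EA libraries, Acsl1 and Fads2 lie lower in all of them, and the other 6 genes overlap between groups.

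The enzymes that make palmitate from citrate did not share a course. Acly, the ATP citrate lyase that supplies cytosolic acetyl-CoA (ENSMUSG00000020917, chromosome 11, 100367179 to 100418826, build GRCm39), had 286, 266, 302 and 258 CPM in EA, against 281, 253, 284 and 233 CPM in control. Acaca, the acetyl-CoA carboxylase that makes malonyl-CoA (ENSMUSG00000020532, chromosome 11, 84020498 to 84292477), had 94.7, 94.4, 104 and 111 CPM in EA, against 93.5, 97.6, 97.1 and 98.7 CPM in control. In both genes the ranges of the groups overlapped. The log2 fold change was 0.08 ± 0.07 for Acly (SE, edgeR adjusted p = 0.294) and 0.06 ± 0.06 for Acaca (edgeR adjusted p = 0.402). With library totals both were past the threshold in the opposite direction, at -0.28 and -0.30, so no direction is given for them.

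Fasn, the fatty acid synthase (ENSMUSG00000025153, chromosome 11, 120696672 to 120715373), had 344, 315, 371 and 318 CPM in EA, against 266, 231, 261 and 216 CPM in control. Every EA library lay above every control library. The means were 337 ± 26.4 CPM in EA and 243 ± 24.0 CPM in control (SD, n = 4 each), which is 1.38-fold higher with a log2 fold change of 0.47 ± 0.07 (SE, edgeR adjusted p = 7.94e-06). On the authors' FPKM values, which divide by library totals, the same libraries overlapped, at 27.1 ± 2.19 FPKM in EA and 25.2 ± 2.55 FPKM in control, and with library totals the log2 fold change was 0.11 and not past the threshold (adjusted p = 0.182).

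Genes of the route were also compared within a library, where the scaling between libraries cancels. The ratio of Fasn to Acaca in FPKM was 5.66, 5.20, 5.60 and 4.47 in EA, against 4.44, 3.69, 4.19 and 3.41 in control. No EA ratio fell within the control range, and the mean log2 ratio was 0.41 higher in EA (exact two-sided permutation p = 0.0286, which no arrangement among the 70 can go below, or 0.0571 after adjustment for 6 pairs). The ratio of Acly to Acaca averaged 8.95 ± 0.996 in EA and 8.79 ± 0.974 in control (SD, n = 4 each), with overlapping libraries (exact permutation p = 0.886). The adjusted p of no pair was under 0.05, but the lowest possible p of 0.0286 adjusts to under 0.05 only if most of the 6 pairs reach it.

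Elovl6, the elongase that extends palmitate to stearate (ENSMUSG00000041220, chromosome 3, 129326004 to 129432144), had 43.1, 48.4, 65.7 and 52.8 CPM in EA, against 66.1, 62.0, 75.0 and 52.2 CPM in control. EA 3 and EA 4 lay within the control range, EA 4 just above Control 4, and Control 2 and Control 4 lay within the EA range. The log2 fold change was -0.28 ± 0.13 (SE) and not past the threshold (edgeR adjusted p = 0.0815). It was past the threshold without EA 3 at -0.40, without Control 4 at -0.36 and with library totals at -0.64. Relative to Fasn, Elovl6 was at a ratio of 0.214, 0.262, 0.301 and 0.283 in EA, against 0.423, 0.457, 0.490 and 0.412 in control. The groups did not overlap, and the log2 ratio was lower in EA by a difference of -0.76 (exact two-sided permutation p = 0.0286, 0.0571 adjusted over 6 pairs).

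The stearoyl-CoA desaturases, which turn stearate into oleate, were, per length, among the 3 highest genes of the set together with Fads1. Scd2 (ENSMUSG00000025203, chromosome 19, 44282113 to 44295303) had 526, 491, 529 and 432 CPM in EA, against 455, 399.8, 549 and 341 CPM in control. The control libraries alone spanned 1.61-fold, and all 4 EA libraries lay inside that span. The log2 fold change of 0.18 ± 0.14 (SE) was not past the threshold (edgeR adjusted p = 0.265), though without Control 3 it was 0.32 and past it.

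Scd1 (ENSMUSG00000037071, chromosome 19, 44382894 to 44396318) had 291, 297, 301 and 259.97 CPM in EA, against 259, 241, 296 and 226 CPM in control, and the groups overlapped. It was past the threshold by a narrow margin, at a log2 fold change of 0.17 ± 0.07 (SE, edgeR adjusted p = 0.0494). This call was lost with DESeq2 (adjusted p = 0.0501), on leaving out any library but Control 3 or EA 4 (log2 fold change 0.12 to 0.18), and with library totals the direction reversed to -0.19. Within libraries the balance of the pair differed little, with Scd1 at 0.650 ± 0.0277 of Scd2 in EA and 0.663 ± 0.0596 in control (ratio of FPKM, SD, n = 4 each, exact permutation p = 0.771). Relative to Fasn, Scd2 was at 3.07, 3.13, 2.86 and 2.73 in EA, against 3.43, 3.47, 4.22 and 3.16 in control, without overlap (exact permutation p = 0.0286, 0.0571 adjusted over 6 pairs). Fasn is part of every pair without overlap, so these ratios are not independent of each other. Reads that Scd1 and Scd2, which are closely related, might share cannot be separated in these counts.

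**Figure D2:**
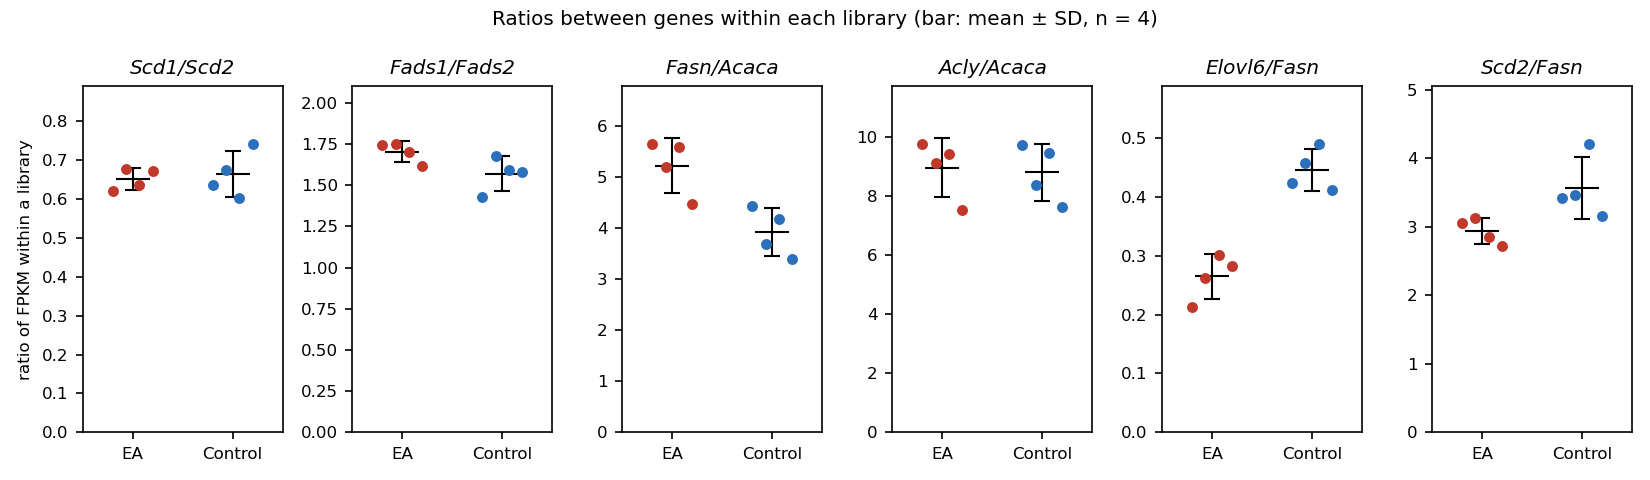
Ratio of the FPKM values of pairs of genes within each library (vertical axis, from 0), for the 4 EA libraries (red, left) and the 4 control libraries (blue, right), with bars for the mean ± SD. Fasn/Acaca is higher in EA, and Elovl6/Fasn and Scd2/Fasn are lower, without overlap, while Scd1/Scd2, Fads1/Fads2 and Acly/Acaca overlap. Every pair without overlap includes Fasn, so these pairs are not independent.

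Fads2 and Fads1 encode the desaturases that act earlier and later in making arachidonate from linoleate, and both were lower in EA. Fads2 (ENSMUSG00000024665, chromosome 19, 10040129 to 10079110) had 118, 118, 124 and 119 CPM in EA, against 174, 142, 176 and 129.8 CPM in control. The EA libraries lay close together below all control libraries, which spread more widely, with a coefficient of variation of 2.41% in EA and 14.9% in control. Fads2 was 1.30-fold lower, with a log2 fold change of -0.38 ± 0.08 (SE, edgeR adjusted p = 0.000708).

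Fads1 (ENSMUSG00000010663, chromosome 19, 10160252 to 10174241) had 300.1, 302, 308 and 279.8 CPM in EA, against 362, 347, 410.1 and 299.8 CPM in control. EA 1 to EA 3 were just above Control 4, and the other control libraries were higher. Fads1 was 1.19-fold lower, with a log2 fold change of -0.25 ± 0.07 (SE, edgeR adjusted p = 0.00568). Both genes were lower and past the threshold under every alternative run, at -0.74 to -0.30 for Fads2 and -0.62 to -0.17 for Fads1. Of the reads of the 10 genes, the 2 together took 20.1% to 21.3% in EA and 26.1% to 26.8% in control. Their ratio, Fads1 over Fads2, averaged 1.70 ± 0.0627 in EA and 1.57 ± 0.105 in control (FPKM, SD, n = 4 each, exact permutation p = 0.0571).

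Acsl1, an acyl-CoA synthetase that activates long-chain fatty acids (ENSMUSG00000018796, chromosome 8, 46924074 to 46989088), had 26.9, 33.3, 35.6 and 35.5 CPM in EA, against 50.9, 49.5, 49.0 and 49.5 CPM in control. The control libraries were almost equal, and every EA library lay below them. This was the largest fall among the 10 genes, 1.51-fold with a log2 fold change of -0.60 ± 0.08 (SE, edgeR adjusted p = 1.86e-06), and it was past the threshold under every alternative run, at -0.96 to -0.51.

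Of the other acyl-CoA synthetase genes, Acsl4, which prefers arachidonate, was 2.22-fold higher, at 281 ± 14.1 CPM in EA and 126 ± 12.3 CPM in control (SD, n = 4 each, edgeR adjusted p = 3.80e-12). Acsl3, found on lipid droplets and the endoplasmic reticulum, was 1.27-fold higher (edgeR adjusted p = 0.00396), a call that was not kept with library totals, where its log2 fold change was -0.018. Acsl5, chosen after its values were seen, was at 59.0 ± 1.86 CPM in EA and 55.9 ± 3.13 CPM in control (SD, n = 4 each) and was not past the threshold (edgeR adjusted p = 0.294). Per length, Acsl1 was the lowest of these 4 in both groups, at 2.76 ± 0.342 FPKM in EA and 5.38 ± 0.0744 FPKM in control, whereas Acsl4 was the highest, at 45.8 ± 2.43 FPKM in EA and 26.5 ± 2.52 FPKM in control (SD, n = 4 each).

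Cd36, a receptor that takes up long-chain fatty acids and oxidised lipoproteins (ENSMUSG00000002944, chromosome 5, 17986688 to 18093799), was the least expressed of the set, with 6.43, 5.59, 6.76 and 5.55 CPM in EA, against 4.02, 3.13, 3.62 and 3.79 CPM in control. All EA libraries lay above all control libraries. These levels rest on 338 reads in EA and 257 reads in control. Cd36 was 1.67-fold higher, with a log2 fold change of 0.74 ± 0.16 (SE, edgeR adjusted p = 0.000368), and it was past the threshold under every alternative run, at 0.22 to 0.80.

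Cd36 is also known from macrophages, adipocytes, platelets and endothelial cells. The 12 macrophage and monocyte markers summed to 59.7 to 64.4 TMM-scaled CPM in EA and 59.8 to 74.9 in control, with overlap. On library totals the sums were 52.4 to 56.8 CPM in EA and 67.4 to 84.5 CPM in control, without overlap. Of the 12 markers, 9 were under 1 CPM on library totals in all libraries, among them Adgre1, Csf1r and Itgam. Lyz2 had 45.0 CPM in EA and 38.9 CPM in control, and Cd14 had 8.50 CPM in EA and 38.6 CPM in control (means on library totals). The 8 endothelial markers summed to 2.08 to 3.46 TMM-scaled CPM in EA and 2.60 to 4.59 in control, with overlap. The 6 megakaryocyte and platelet markers summed to 32.4 to 37.2 TMM-scaled CPM in EA and 55.3 to 65.0 in control, with Gp1bb at 0, Ppbp at 4.92 CPM in EA and 51.0 CPM in control, and Itgb3 at 19.5 CPM in EA and 5.25 CPM in control (means on library totals). The part of such cells in the level of Cd36 was not tested.

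**Figure D3:**
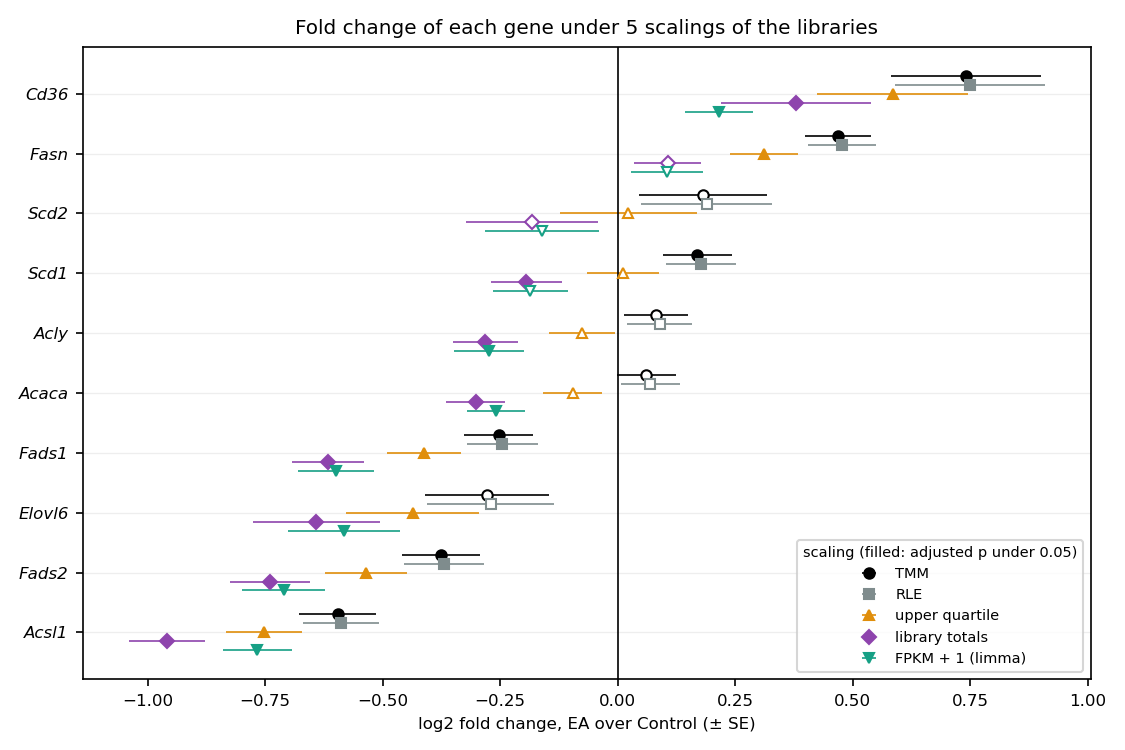
Log2 fold change of EA over control (horizontal axis, with SE) for each gene under 5 scalings of the libraries, with filled symbols for an adjusted p under 0.05. Acsl1, Fads2 and Fads1 stay below 0 and Cd36 and Fasn stay above 0 in all 5, and Scd1, Scd2, Acly and Acaca change side.

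Between genes, levels were compared per length. In EA the order by mean FPKM was Scd2 at 79.8, Fads1 at 54.5, Scd1 at 51.8, Acly at 46.4, Fads2 at 32.0, Fasn at 27.1, Elovl6 at 7.20, Acaca at 5.21, Acsl1 at 2.76 and Cd36 at 1.49. In control the order was the same, with means of 90.5 FPKM for Scd2, 83.6 for Fads1, 59.2 for Scd1, 56.4 for Acly, 53.5 for Fads2, 25.2 for Fasn, 11.3 for Elovl6, 6.42 for Acaca, 5.38 for Acsl1 and 1.15 for Cd36. In EA the ranges over libraries overlapped between Fads1 and Scd1 and between Scd1 and Acly, and in control between Scd2 and Fads1, between Scd1 and Acly and between Acly and Fads2. Other neighbours in the order were separate in all libraries of a group. Reads of the 10 genes made up 0.177 ± 0.0107% of the EA libraries and 0.218 ± 0.0279% of the control libraries (SD, n = 4 each), but their summed TMM-scaled level was 2006 ± 116 CPM in EA and 1922 ± 238 CPM in control.

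Within a group, libraries differed in how many of the 10 genes they held above the group mean. In EA 1 to EA 4 these were 6, 3, 10 and 3 of the 10 genes, and in Control 1 to Control 4 they were 9, 1, 8 and 2. Scd2, Scd1, Fads1, Fads2 and Elovl6 were all highest among controls in Control 3 and lowest in Control 4, whereas Acsl1 and Acaca were nearly level over the 4. Of 20 genes of cholesterol synthesis and uptake, 12, 16, 18 and 1 were above the group mean in EA 1 to EA 4, and 13, 8, 20 and 0 in Control 1 to Control 4. EA 3 and Control 3 were thus high and EA 4 and Control 4 low for both lists, while EA 2 was high for most cholesterol genes and low for most of the 10. Over all tested genes the share above the group mean was 48.4% to 53.1% in every library. With both Control 3 and Control 4 left out, 4 of the 10 genes were higher and 3 lower, beside 63.5% of all genes called in that fit, Scd2 being the added call at a log2 fold change of 0.21 (edgeR adjusted p = 0.0194).

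**Figure D4:**
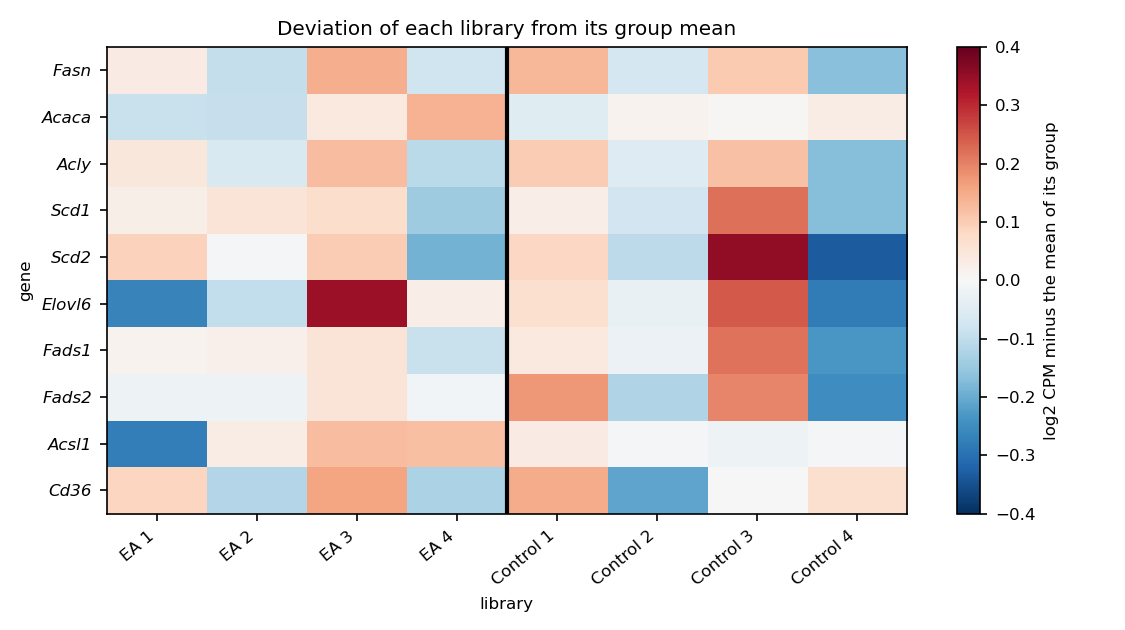
Deviation of each library (horizontal axis) from the mean of its group in log2 CPM (colour, red above and blue below) for each gene (vertical axis). Control 3 is red and Control 4 blue for the desaturases, Elovl6, Acly and Fasn, and Acsl1 and Acaca are pale across the control libraries.

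Of 12 tested regulators of lipogenic transcription 2 were higher and 2 lower, beside 67.2% of all tested genes called (median log2 fold change 0.03, against -0.02 for all tested genes). Ppard, a fatty acid receptor, was 1.85-fold higher at 109 ± 5.11 CPM in EA and 58.9 ± 4.85 CPM in control (SD, n = 4 each, edgeR adjusted p = 3.17e-10). Srebf2, which encodes SREBP-2, was 1.17-fold higher (edgeR adjusted p = 0.00774), and its direction reversed to -0.14 with library totals. The lower genes were Insig2, which holds SREBP in the endoplasmic reticulum, 1.49-fold lower (edgeR adjusted p = 1.89e-07), and Mid1ip1, a partner of acetyl-CoA carboxylase, at 2.62-fold with 3.28 ± 1.15 CPM in EA and 8.64 ± 0.916 CPM in control (SD, n = 4 each, edgeR adjusted p = 1.83e-06). Srebf1, chosen after its values were seen, was at 46.9 ± 1.89 CPM in EA and 51.2 ± 4.34 CPM in control (SD, n = 4 each), with a log2 fold change of -0.13 that was not past the threshold (edgeR adjusted p = 0.131). It was past the threshold in 5 alternatives, at -0.49 with library totals. Pparg, Ppara, Mlxipl and Thrsp had too few reads to be tested. With library totals 1 regulator was higher and 9 were lower. Of all 11777 tested genes 1940 were then higher and 7196 lower, which is the background for every list count with library totals below.

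Of 7 tested genes that supply precursors and NADPH 4 were higher and 2 lower (median 0.23), beside 67.2% of all tested genes called. The citrate carrier gene Slc25a1 was lower by a log2 fold change of -0.37, as was Mlycd, which removes malonyl-CoA, by -0.58 (edgeR adjusted p = 0.000907 and 0.00465). G6pdx and Pgd, the NADPH-making enzymes of the pentose phosphate pathway, were 1.20-fold and 1.18-fold higher (edgeR adjusted p = 0.000274 and 0.000927), but both reversed with library totals, to -0.10 and -0.12, where 0 of the 7 were higher.

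Of 14 other tested elongation and desaturation genes 6 were higher and 3 lower (median 0.27), beside 67.2% of all tested genes called. Hacd2 and Hacd3, dehydratases of the elongation cycle, were 2.59-fold and 1.68-fold higher, at 41.4 ± 2.80 CPM and 69.8 ± 1.68 CPM in EA and 15.9 ± 1.32 CPM and 41.6 ± 3.87 CPM in control (SD, n = 4 each, edgeR adjusted p = 1.38e-11 and 1.14e-08). Fads3, the third gene of the Fads family, was 1.26-fold lower beside Fads1 and Fads2 (edgeR adjusted p = 0.000174), and the elongase gene Elovl7 was 1.25-fold lower (edgeR adjusted p = 0.00147). Fads6, of the same list and chosen after its values were seen, went the other way at low counts. It was 4.02-fold higher, at 2.82 ± 0.465 CPM in EA and 0.704 ± 0.376 CPM in control (SD, n = 4 each, edgeR adjusted p = 1.07e-05). Elovl5, which elongates between the steps of Fads2 and Fads1 and was chosen after its values were seen, was 1.34-fold higher (edgeR adjusted p = 2.11e-05), a call lost with library totals.

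Of 11 other tested genes of fatty acid uptake, binding and activation 4 were higher and 4 lower (median 0.07), beside 67.2% of all tested genes called. Besides Acsl4 and Acsl3, the fatty acid binding protein gene Fabp5 had 77.0 ± 7.76 CPM in EA and 230.5 ± 28.6 CPM in control (SD, n = 4 each) and was lower by a log2 fold change of -1.58 ( edgeR adjusted p = 5.68e-11), and the transporter gene Slc27a1 was 1.45-fold lower (edgeR adjusted p = 0.000359). With library totals 1 was higher and 7 were lower.

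Fatty acid oxidation, the opposite route, had 8 higher and 7 lower of 20 tested genes (median 0.03), beside 67.2% of all tested genes called. Cpt1a, whose enzyme carries acyl groups toward mitochondria and is inhibited by malonyl-CoA, was 2.73-fold higher, at 308 ± 28.2 CPM in EA and 113 ± 15.7 CPM in control (SD, n = 4 each, edgeR adjusted p = 6.69e-10). Cpt2, the inner membrane partner of Cpt1a, was 2.18-fold lower and the dehydrogenase gene Acadl 1.33-fold lower (edgeR adjusted p = 2.51e-08 and 4.41e-05). These 3 calls held with library totals, but the list then had 2 higher and 13 lower genes, beside 1940 higher and 7196 lower of all 11777 tested genes.

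Of 17 tested genes of glycerolipid synthesis and breakdown 5 were higher and 8 lower (median -0.13), beside 67.2% of all tested genes called. Gpat3 and Lpin2, of phosphatidate and diacylglycerol synthesis, were 2.10-fold and 1.76-fold higher (edgeR adjusted p = 9.47e-08 and 1.38e-10), and Dgat2, of triglyceride synthesis, and Hilpda, a lipid droplet protein, were 4.69-fold and 1.94-fold lower (edgeR adjusted p = 1.36e-12 and 1.73e-07). The PPAR target list shares 6 of its 14 genes with the oxidation list and 2 with the glycerolipid list. Of its 10 tested genes 6 were higher and 3 lower (median 0.29), beside 33.1% of all tested genes higher and 34.2% lower. With library totals 2 of the 10 were higher and 5 lower. Cpt1a, given above, was among the higher genes, Hilpda, also given above, was among the lower ones, and Angptl4, an inhibitor of lipoprotein lipase, was 3.21-fold lower (edgeR adjusted p = 3.98e-06). The LXR target list shares 2 of its 8 genes with the regulators of lipogenic transcription. Of 6 tested LXR targets 1 was higher, Mylip at 2.51-fold (edgeR adjusted p = 1.81e-10), and none was lower (median 0.11), beside 67.2% of all tested genes called. With library totals 3 of the LXR targets were lower.

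Of 20 cholesterol genes 4 were higher and 10 lower (median -0.32), beside 33.1% of all tested genes higher and 34.2% lower. Ebp, an isomerase gene, was 2.29-fold higher (edgeR adjusted p = 3.01e-10), and Lss and Pmvk, also of cholesterol synthesis, were lower by -0.72 and -0.58 on the log2 scale (edgeR adjusted p = 3.01e-05 and 6.29e-05). Of 8 tested genes of AMPK, the kinase that phosphorylates and inhibits acetyl-CoA carboxylase, and its activators, 6 were higher and 1 lower (median 0.69). Of all tested genes 33.1% were higher and 34.2% lower. The subunit gene Prkab2 was 2.32-fold higher and the upstream kinase gene Camkk2 1.63-fold higher (edgeR adjusted p = 6.06e-13 and 4.81e-09). The catalytic subunit gene Prkaa2 was 2.18-fold lower, at 5.46 ± 0.273 CPM in EA and 11.9 ± 1.94 CPM in control (SD, n = 4 each, edgeR adjusted p = 4.49e-07). The other catalytic subunit gene, Prkaa1, chosen after its values were seen, was 1.85-fold higher, at 113 ± 11.1 CPM in EA and 61.1 ± 7.36 CPM in control (SD, n = 4 each, edgeR adjusted p = 2.72e-08). With library totals 4 of these were higher and 2 lower.

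**Figure D5:**
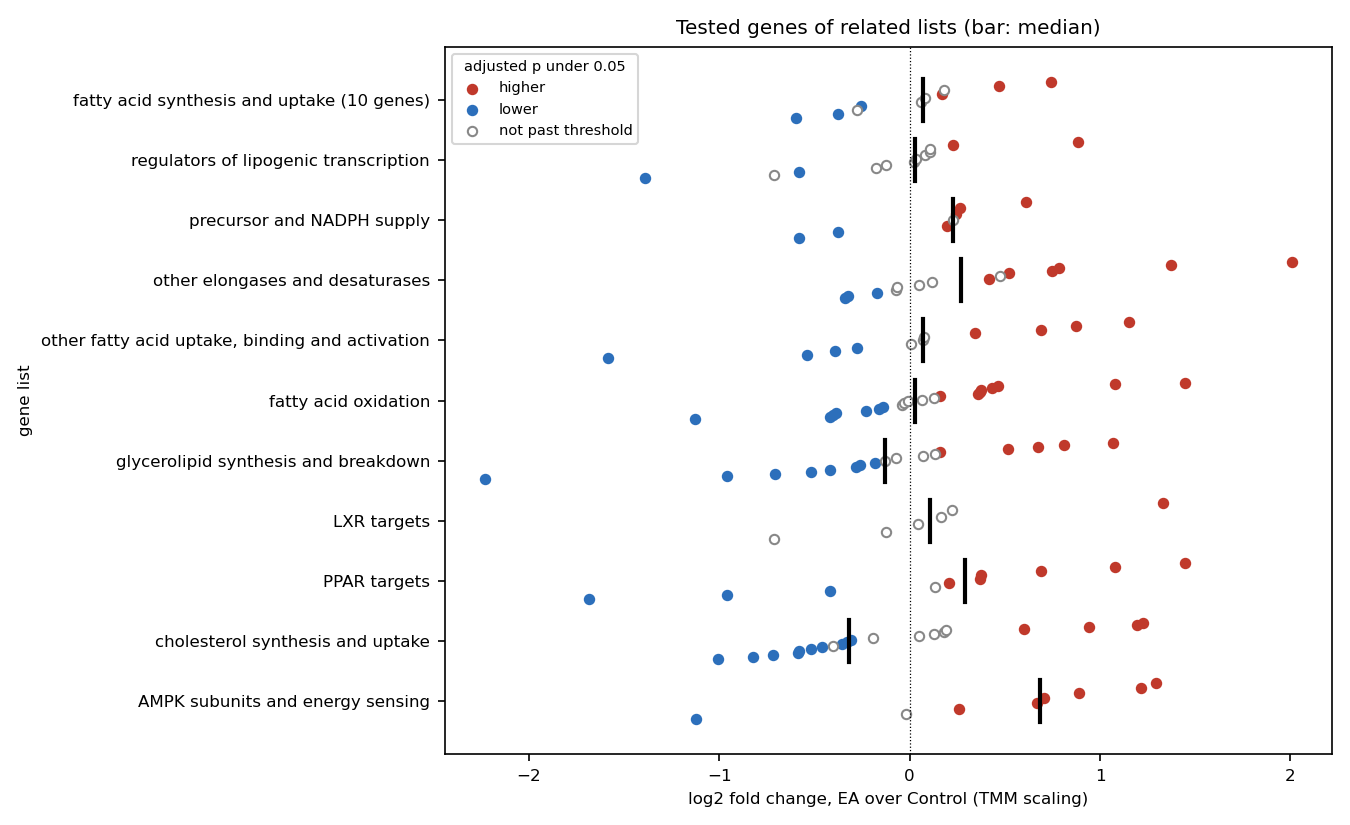
Log2 fold change of EA over control (horizontal axis, TMM scaling) of each tested gene in the 10 genes of the set and in 10 related lists (vertical axis), coloured by call, with a bar at each list's median. The set spans -0.60 to 0.74, and lists of related routes hold genes with larger changes on both sides of 0.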

How the data were processed

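Read counts and FPKM per gene were deposited by the authors. The submitters' processing notes name cutadapt 1.15, HISAT2 2.0.5 and build GRCm39; how reads were counted, on which strand and against which annotation is not given in the sources used here. FPKM, per the file headers, is the authors' own value per length and library total. All genes of the deposited count table entered 1 fit (edgeR 4.0.16, R 4.3.3) with TMM factors, filterByExpr and a robust quasi-likelihood test without covariates (threshold: Benjamini-Hochberg adjusted p under 0.05 over all 11777 tested genes). The SE is the size of the log2 fold change divided by the square root of F. Ratios used FPKM and an exact permutation test. Alternatives were RLE, upper-quartile and no factors, 2 other filters, DESeq2 1.42.0, limma 3.58.1 (voom, and log2 FPKM with pseudocounts of 1 and 0.1), a stricter threshold, a replicate block and leaving out each library. Steps were tested on simulated data in which few genes changed, in random directions, so those tests cannot judge the choice of scaling here. The 10 genes, the 10 related lists and the 7 marker lists were chosen with earlier results of these data known. From each related list, up to 2 higher and 2 lower called genes with the smallest p were named, or the 2 most expressed where none was called; others are marked, and some genes that the rule names are not reported here. The gene Gm11437 overlaps Acaca in the table, with 0 reads in EA and 2 in control. Figures used matplotlib 3.10.9.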

Additional observations from a re-analysis of the deposited data

Results flagged for a closer look

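Fads2 in EA 3, at 124 CPM, stood apart from the other EA libraries, which were at 118, 118 and 119 CPM. The gap to the nearest library was 0.873 of the whole range of the group. Among the 32 groups of 4 values examined in this way this was the only one flagged, and about 5% of groups are flagged by chance. EA 3 was the library in which all 10 genes were above their group mean, and without EA 3 the call of Fads2 was kept.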

How the results depend on the processing

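The calls of Acsl1, Fads2, Fads1 and Cd36 kept their direction and their side of the threshold under every alternative run for them. The split of all genes depended on scaling, with 3893 higher and 4027 lower under TMM, 1940 and 7196 with library totals, 1922 and 7179 for limma on log2(FPKM + 0.1) and 1924 and 7170 with a pseudocount of 1. Among the 10 genes, 1 was higher and 7 were lower with library totals, and 1 and 6 with either FPKM fit. In the order library totals, FPKM + 0.1 and FPKM + 1, the log2 fold change was 0.11, 0.11 and 0.10 for Fasn, which was no longer past the threshold, -0.30, -0.30 and -0.26 for Acaca, -0.28, -0.28 and -0.27 for Acly, -0.19, -0.19 and -0.19 for Scd1, and -0.64, -0.64 and -0.58 for Elovl6. Among related genes, the same 3 alternatives reversed Acsl3 (-0.018, -0.013 and -0.012), Acsl5 (-0.29, -0.28 and -0.26), G6pdx (-0.10, -0.10 and -0.095), Pgd (-0.12, -0.12 and -0.11) and Srebf2 (-0.14, -0.13 and -0.13). The first differs from the TMM fit in scaling alone, and the FPKM fits also in unit, test and pseudocount; which scaling is right was not tested. Scd1 was not past the threshold with DESeq2 (0.18), with CPM above 1 in all libraries (0.16) or with upper-quartile factors (0.011), and Elovl6 was past it with DESeq2 (-0.27) and upper-quartile factors (-0.44). Leaving out single libraries gave 0.12 to 0.25 for Scd1, 0.083 to 0.32 for Scd2 and -0.40 to -0.18 for Elovl6. Whether replicate numbers pair the libraries cannot be told from these values. Over all tested genes, deviations of same-numbered libraries correlated at -0.02 to 0.03. For the 10 genes, however, same-numbered libraries leaned the same way throughout. More of the genes were above the group mean in EA 1 and Control 1 (6 and 9) and in EA 3 and Control 3 (10 and 8). Fewer were above it in EA 2 and Control 2 (3 and 1) and in EA 4 and Control 4 (3 and 2). A fit with the replicate block called Scd2 (0.20) and Elovl6 (-0.28), gave 3834 genes higher and 3960 lower, and changed no other call of the 10 genes. With both Control 3 and Control 4 left out, chosen after seeing the data, Scd2 was called (0.21). The 6 ratios were past an adjusted threshold under no alternative. An exact p of 4 against 4 or 3 against 4 libraries cannot go below 0.0286. That p adjusts to under 0.05 only if most of the 6 pairs reach it. A sign-flip test of 4 pairs cannot go below 0.125. The cause of the changes between alternatives was not tested. Cd36, with 257 reads in control, is the gene most limited by depth.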
